A study of Mus musculus with 18 samples.

Results

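Expression of 10 genes of incretin and cyclic AMP (cAMP) signalling was compared in mouse pancreatic islets: Glp1r, Gipr, Gcgr, Ffar1, Adcy5, Adcy8, Rapgef4, Ppp1r1a, Pde3b and Gnas. The genes were chosen by name and found by gene symbol, 10 of the 53801 mouse genes in the deposited count tables, and all 10 passed the filter on low counts that left 18364 genes for testing. RNA-seq libraries were made from isolated whole islets, the pancreas's clusters of endocrine cells, of mice aged 5 weeks and fed normal chow. The groups were 4 libraries of male mice heterozygous for MafA S64F (S64F/+), 4 of male wild-type mice (WT), 5 of female S64F/+ mice and 5 of female WT mice. MafA is a transcription factor of mature beta cells, and S64F is a single amino acid substitution that the series' title ties to an inherited form of diabetes. The sources used here do not give the mouse strain, how the allele was made or whether each library came from a separate animal, so p-values reflect the spread among libraries alone, which may be technical.

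After a meal the gut releases the incretin hormones GLP-1 and GIP, which bind receptors on beta cells and, through the stimulatory G protein, switch on adenylyl cyclases that make cAMP. In beta cells cAMP raises glucose-stimulated insulin secretion along the branches of protein kinase A and of Epac2, and phosphodiesterases break it down. The glucagon receptor uses the same route, while the free fatty acid receptor FFAR1 acts mainly through the Gq protein and calcium. The 10 genes cover this chain from receptors (Glp1r, Gipr, Gcgr, Ffar1) through the G protein (Gnas) and cyclases (Adcy5, Adcy8) to the cAMP sensor Epac2 (Rapgef4), a phosphatase inhibitor that protein kinase A switches on (Ppp1r1a) and an enzyme that degrades cAMP (Pde3b).

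Library totals were 19.3 M to 108.7 M counts, with a median of 42.4 M. Expression is given as CPM, read counts per M counts of the library, with library sizes scaled by the trimmed mean method (TMM). Even the lowest of the 10 genes, Adcy8, had at least 22 counts in each library. A change is called where edgeR's quasi-likelihood test, fitted over all tested genes and adjusted by Benjamini-Hochberg, gave an adjusted p under 0.05, and fold changes are log2 values with their SE. All 8 beta-cell markers listed for the check of the islet label passed the filter, with a summed level of 126520 to 307223 CPM over the libraries, and markers of the other islet cells were also present. Mafa itself was at 147 to 267 CPM in male S64F/+ libraries against 812 to 1008 CPM in male WT, and at 104 to 239 CPM in female S64F/+ against 492 to 803 CPM in female WT libraries.

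In males 7 of the 10 genes fell in S64F/+ islets, 2 rose and 1 was not called, where 27.6% of all tested genes were called (15.4% higher and 12.3% lower). In females 6 fell, 1 rose and 3 were not called, where 21.2% of all tested genes were called (10.2% higher and 11% lower). The median log2 fold change of the 10 was -0.81 in males and -0.45 in females, beside -0.03 and 0.02 over all tested genes. All 10 genes had male groups that did not overlap, as did 35.1% of tested genes, and 5 of 10 had female groups that did not overlap, as did 11.6% of tested genes. The 10 genes were chosen with earlier results of these data known, so these comparisons with all tested genes are descriptive and test no excess. The largest falls in both sexes were in the 4 receptors. In males Ppp1r1a (-1.25 ± 0.10) fell about as much as Gipr (-1.27 ± 0.13), the difference being smaller than either SE.

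**Figure D1:**
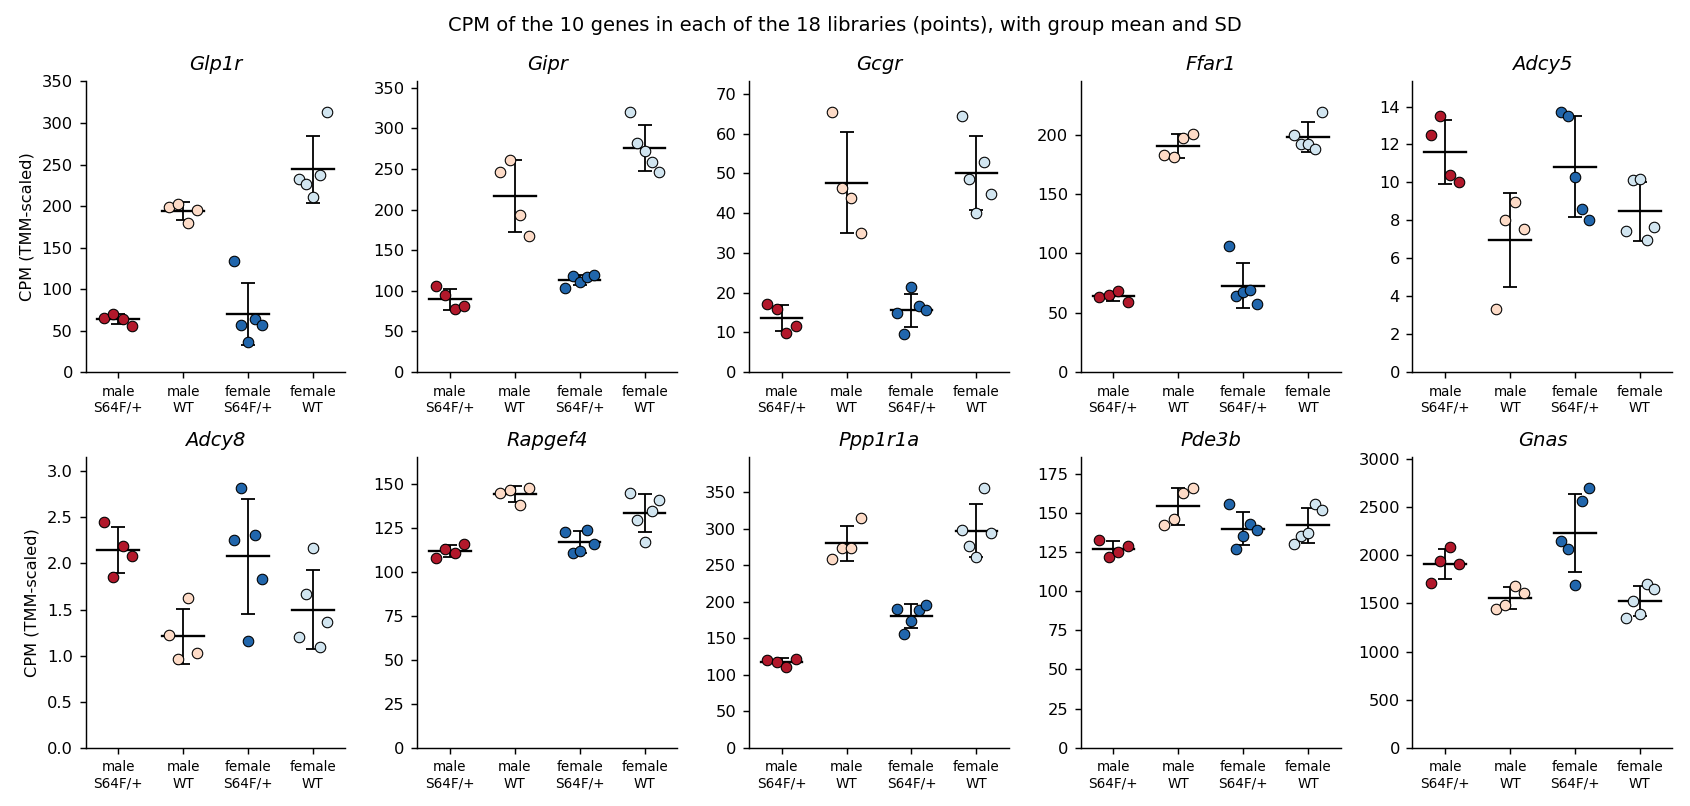
CPM of the 10 genes (vertical axes, from 0) in each library, by group (horizontal axes), with the group mean as a horizontal line and the SD as an error bar. The 4 receptors sit lower in all S64F/+ libraries than in all WT libraries of the same sex, and Ppp1r1a is lowest in male S64F/+ islets at 111 to 122 CPM.

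Glp1r (ENSMUSG00000024027, GRCm38 chromosome 17, 30901817 to 30940791, plus strand) encodes the GLP-1 receptor. It had 64.6, 70.2, 63.6 and 56.0 CPM in male S64F/+ libraries, against 199, 203, 179 and 195 CPM in male WT libraries. It had 134, 56.9, 35.6, 64.4 and 57.1 CPM in female S64F/+ libraries, against 233, 226, 211, 237 and 313 CPM in female WT libraries. Neither pair of groups overlapped, and the first female S64F/+ library stood well above the other 4 of its group. The log2 fold change was -1.61 ± 0.27 in males (edgeR adjusted p 0.0004), a level 3.05-fold lower, and -1.81 ± 0.25 in females (edgeR adjusted p 7.24e-05), 3.50-fold lower. Without the first female S64F/+ library the female value was -2.19, the lowest of the 18 fits that each left out 1 library.

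Gipr (ENSMUSG00000030406, chromosome 7, 19156061 to 19166127, minus strand) encodes the GIP receptor. It had 106, 94.5, 77.4 and 81.8 CPM in male S64F/+ libraries, against 246, 261, 194 and 167 CPM in male WT. It had 104, 118, 111, 117 and 119 CPM in female S64F/+ libraries, against 320, 282, 272, 259 and 246 CPM in female WT. The groups were apart in both sexes, and the female S64F/+ libraries lay within a narrow band. The log2 fold change was -1.27 ± 0.13 in males (edgeR adjusted p 1.61e-06) and -1.28 ± 0.12 in females (edgeR adjusted p 5.02e-07), a level 58.5% lower in male and 58.7% lower in female S64F/+ islets.

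Gcgr (ENSMUSG00000025127, chromosome 11, 120530699 to 120538986, plus strand), the glucagon receptor gene, was the least abundant of the 4 receptors. It had 17, 15.9, 9.91 and 11.7 CPM in male S64F/+ libraries, against 65.4, 46.4, 43.7 and 35.1 CPM in male WT. In females it had 14.8, 9.65, 21.3, 16.6 and 15.5 CPM in S64F/+ libraries, against 64.4, 48.7, 40.0, 52.8 and 44.9 CPM in WT. The groups were apart in both sexes, and in each sex the first WT library was the highest. The log2 fold change was -1.80 ± 0.23 in males (edgeR adjusted p 2.88e-05) and -1.69 ± 0.21 in females (edgeR adjusted p 2.07e-05).

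Ffar1 (ENSMUSG00000044453, chromosome 7, 30857390 to 30861564, minus strand) encodes the receptor for long-chain fatty acids that raises insulin secretion. It had 63.5, 64.7, 68.4 and 58.7 CPM in male S64F/+ libraries, against 183, 181, 197 and 201 CPM in male WT. It had 106, 64.2, 67.5, 69.2 and 57.7 CPM in female S64F/+ libraries, against 200, 192, 192, 188 and 219 CPM in female WT. Groups were apart in both sexes, and the same female S64F/+ library that was high for Glp1r was the high one here. The log2 fold change was -1.58 ± 0.14 in males (edgeR adjusted p 2.63e-07) and -1.44 ± 0.12 in females (edgeR adjusted p 2.29e-07), or 2.99-fold and 2.72-fold lower. The calls of all 4 receptors held in both sexes under every alternative run, also when single libraries were dropped.

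For the receptors that fell together, the windows around their RefSeq start sites (250 bases before to 50 after, build GRCm38.p6) are shown so that their letters can be read beside the values. The sequence table held a window for 6 of the 10 genes, Glp1r, Gcgr, Ffar1, Adcy5, Rapgef4 and Gnas, and none for Gipr, Adcy8, Ppp1r1a and Pde3b. Each is given 5′ to 3′ along the gene's strand, and capitals mark a match to a searched motif. The label promoter names the window only, since the RefSeq start of Ffar1 lies downstream of the annotated start of the gene.
Glp1r promoter, chr17:30901617-30901916, plus strand: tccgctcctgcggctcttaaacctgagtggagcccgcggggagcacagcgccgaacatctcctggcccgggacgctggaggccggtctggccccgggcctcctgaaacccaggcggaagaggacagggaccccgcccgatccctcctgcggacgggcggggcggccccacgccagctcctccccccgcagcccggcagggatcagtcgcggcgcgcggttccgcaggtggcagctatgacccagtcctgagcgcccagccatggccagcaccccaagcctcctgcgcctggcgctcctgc
Gcgr promoter, chr11:120530477-120530776, plus strand: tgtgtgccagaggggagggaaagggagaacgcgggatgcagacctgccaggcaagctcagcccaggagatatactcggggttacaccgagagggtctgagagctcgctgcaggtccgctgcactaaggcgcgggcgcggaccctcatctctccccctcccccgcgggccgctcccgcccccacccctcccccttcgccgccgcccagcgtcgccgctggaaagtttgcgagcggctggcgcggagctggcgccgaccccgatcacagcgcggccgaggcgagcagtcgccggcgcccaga
Ffar1 promoter, chr7:30861421-30861720, minus strand: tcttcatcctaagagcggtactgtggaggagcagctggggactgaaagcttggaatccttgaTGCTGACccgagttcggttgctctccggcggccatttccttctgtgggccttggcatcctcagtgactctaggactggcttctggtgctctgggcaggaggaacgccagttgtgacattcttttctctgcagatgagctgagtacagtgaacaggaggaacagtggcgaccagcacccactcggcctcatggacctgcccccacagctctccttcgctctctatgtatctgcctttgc

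The motifs searched on both strands were a half-site of the Maf recognition element, TGCTGAC, the cAMP response element, TGACGTCA, and its half-site, TGACG, which lies within it. Among 32851 windows of this length, 4.67% held TGCTGAC, 1.79% held the full cAMP element and 20.8% held its half-site. Ffar1 held 1 copy of TGCTGAC, which begins 188 bases before the RefSeq start used for its window. This RefSeq start falls on the letters atg of a start codon, and the annotated gene begins upstream of it, at base 30861564. The 188 bases are therefore not a distance from the annotated start of the gene. The Glp1r, Gcgr, Adcy5 and Rapgef4 windows held none of the 3 motifs. Gnas has 4 windows, of which 3 held the cAMP half-site, 2 of them sharing the same copy. A match says only that these letters are present in the window.

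Ffar1 lies beside Ffar2 and Ffar3, which encode receptors for short-chain fatty acids, and both fell with it. Ffar2 averaged 16.3 ± 2.36 CPM in male S64F/+ and 42.8 ± 1.06 CPM in male WT islets (SD, n = 4 each), with a log2 change of -1.39 ± 0.18 (edgeR adjusted p 2.31e-05). Ffar3 averaged 6.55 ± 0.969 CPM in male S64F/+ and 20.1 ± 2.09 CPM in male WT islets, with a log2 change of -1.62 ± 0.17 (edgeR adjusted p 2.44e-06). In females the values were -1.13 ± 0.16 for Ffar2 and -1.34 ± 0.15 for Ffar3 (edgeR adjusted p 6.87e-05 and 5.76e-06). The 6 other tested genes within 100 kb of Ffar1, which were looked up after these values were seen, were not called in either sex. Of these only Usf2, a transcription factor gene, and Lsr, a lipoprotein receptor gene, averaged above 2 CPM, at 59.5 and 70.6 CPM, with log2 fold changes of -0.13 and -0.18 in males and -0.11 and 0.21 in females.

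**Figure D2:**
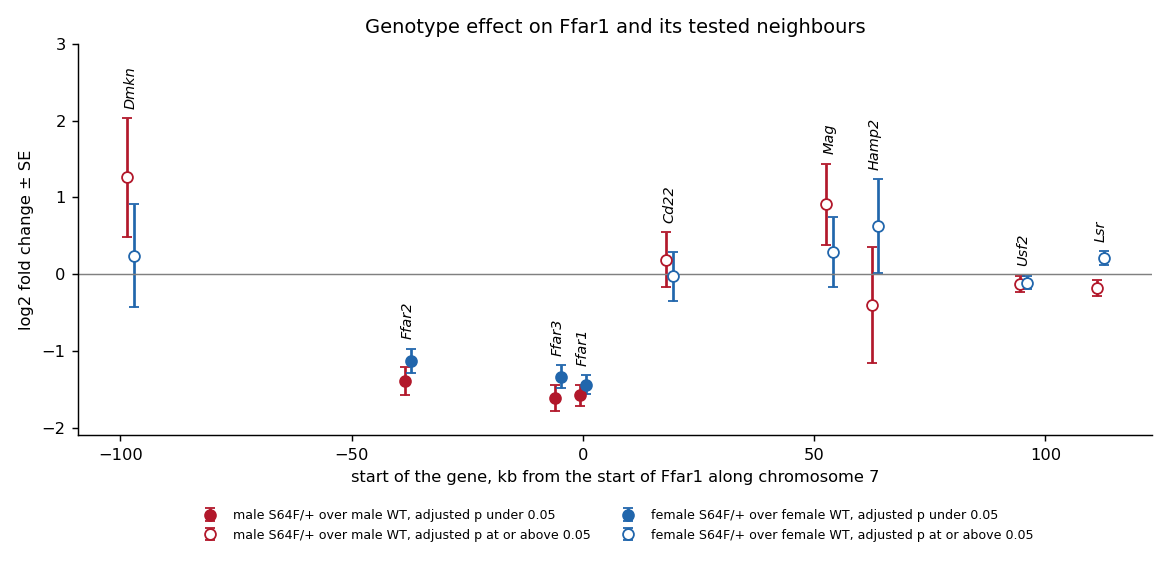
Log2 fold change with SE (vertical axis) of Ffar1 and the 8 tested genes within 100 kb, placed by the distance of each gene's start from that of Ffar1 in kb (horizontal axis). Male and female comparisons are shown side by side. Ffar2, Ffar3 and Ffar1 lie between -1.62 and -1.13, and open symbols mark genes that were not called.

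The mean of the stimulatory G protein gene was higher in S64F/+ than in WT islets of both sexes, unlike the receptors. Gnas (ENSMUSG00000027523, chromosome 2, 174284320 to 174346744, plus strand) encodes the alpha subunit that links these receptors to adenylyl cyclase. It had 1709, 1939, 2091 and 1906 CPM in male S64F/+ libraries, against 1443, 1480, 1687 and 1613 CPM in male WT. In females it had 2145, 2063, 1697, 2567 and 2702 CPM in S64F/+ libraries, against 1348, 1530, 1387, 1707 and 1653 CPM in WT. The male groups were apart by a narrow gap, and the third female S64F/+ library lay within the WT range. Gnas rose in females (0.55 ± 0.11, edgeR adjusted p 0.00211), while in males the value of 0.30 ± 0.13 was not called (edgeR adjusted p 0.0933).
The male value was called in 4 of the other fits: with plain library sizes (0.52, edgeR adjusted p 0.00468), with the replicate number as a block (0.30, edgeR adjusted p 0.0361), on the male libraries alone (0.31, edgeR adjusted p 0.0204) and without the third female S64F/+ library (edgeR adjusted p 0.044). The male and female effects did not differ detectably (difference -0.25 ± 0.17, edgeR adjusted p 0.378). The Gnas count sums several imprinted and biallelic transcripts of a complex locus, and it shares exonic bases with 2 genes of the opposite strand, the antisense gene Nespas (988 bases) and the gene Gm20721, annotated as protein-coding (1469 bases), which had 1162 and 6127 counts over all libraries.

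The 2 cyclase genes were low and had higher means in S64F/+ islets. Adcy8 (ENSMUSG00000022376, chromosome 15, 64697084 to 64922296, minus strand) encodes a calcium-stimulated adenylyl cyclase. It had 2.45, 1.85, 2.19 and 2.08 CPM in male S64F/+ libraries, against 1.22, 0.962, 1.63 and 1.03 CPM in male WT. In females it had 2.26, 2.82, 1.16, 2.31 and 1.83 CPM in S64F/+ libraries, against 1.20, 1.67, 2.17, 1.09 and 1.37 CPM in WT. The male groups were apart, and the female groups overlapped. It rose in males (0.83 ± 0.27, edgeR adjusted p 0.0281) and was not called in females (0.48 ± 0.24, edgeR adjusted p 0.161). The male call was lost without a filter on low counts (edgeR adjusted p 0.0518), with the replicate block (edgeR adjusted p 0.0558) and in 5 of 18 refits with a single library dropped. Those libraries were male S64F/+ 1 and 3 and male WT 1, 2 and 4, with the highest edgeR adjusted p, 0.0821, without male WT 4.

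Adcy5 (ENSMUSG00000022840, chromosome 16, 35154877 to 35305738, plus strand) encodes a cyclase that calcium inhibits. It had 12.5, 13.5, 10.4 and 10 CPM in male S64F/+ libraries, against 3.32, 8.01, 8.95 and 7.56 CPM in male WT. In females it had 13.7, 13.5, 10.3, 8.59 and 8.02 CPM in S64F/+ libraries, against 7.42, 10.1, 10.2, 6.96 and 7.67 CPM in WT. The male groups were apart, with 1 low WT library, and the female groups overlapped. Adcy5 rose in males (0.73 ± 0.24, edgeR adjusted p 0.0311) and was not called in females (0.35 ± 0.21, edgeR adjusted p 0.262). The male call was lost without male S64F/+ 1 or 2 or without male WT 1 or 4, with the highest edgeR adjusted p, 0.0847, without male S64F/+ 2.

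Of the 2 downstream arms, the phosphatase inhibitor changed most. Ppp1r1a (ENSMUSG00000022490, chromosome 15, 103530279 to 103538003, minus strand) encodes inhibitor 1 of protein phosphatase 1, which prolongs protein kinase A signals by blocking that phosphatase once phosphorylated. It had 120, 117, 111 and 122 CPM in male S64F/+ libraries, against 259, 273, 273 and 315 CPM in male WT. It had 190, 156, 173, 189 and 196 CPM in female S64F/+ libraries, against 299, 277, 262, 356 and 294 CPM in female WT. The groups were apart in both sexes, and every male S64F/+ library lay below every female S64F/+ library. The log2 fold change was -1.25 ± 0.10 in males (edgeR adjusted p 7.51e-08) and -0.72 ± 0.09 in females (edgeR adjusted p 1.01e-05).

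Ppp1r1a was the only one of the 10 genes whose genotype effect was called different between the sexes, where 4.47% of all tested genes were called (2.87% higher and 1.6% lower). The male effect was lower than the female effect by a log2 difference of -0.53 ± 0.13 (edgeR adjusted p 0.0286). This call was lost with plain library sizes (-0.29, edgeR adjusted p 0.126), without a filter on low counts (-0.54, edgeR adjusted p 0.0527) and in 8 of 18 such refits with a library dropped. Those were male S64F/+ 1, 2 and 3, male WT 3 and 4, female S64F/+ 4 and 5 and female WT 2, with the highest edgeR adjusted p, 0.0771, without male WT 4. Within S64F/+ islets Ppp1r1a was lower in males than in females (-0.62 ± 0.09, edgeR adjusted p 0.000494), and it was the only one of the 10 called there, where 16.1% of tested genes were (8% higher and 8.12% lower). Within WT islets, where 2.36% of tested genes were called (1.73% higher and 0.637% lower), 0 of the 10 were called between the sexes by edgeR or by DESeq2's Wald test, and 1 of them, Gipr, had an unadjusted edgeR p under 0.05 (log2 difference -0.35 ± 0.12, adjusted p 0.139). The WT groups of Glp1r did not overlap, at 179 to 203 CPM in males and 211 to 313 CPM in females, though the difference was not called (-0.33 ± 0.26, edgeR adjusted p 0.521).

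Rapgef4 (ENSMUSG00000049044, chromosome 2, 71981240 to 72257474, plus strand) encodes Epac2, the cAMP sensor of insulin granule exocytosis. It had 108, 113, 111 and 116 CPM in male S64F/+ libraries, against 145, 147, 138 and 148 CPM in male WT. In females it had 123, 111, 112, 124 and 116 CPM in S64F/+ libraries, against 145, 130, 117, 135 and 141 CPM in WT. The male groups were apart, and in females the lowest WT library lay among the S64F/+ libraries. In females the log2 fold change was -0.19 ± 0.06 (edgeR adjusted p 0.0348), beside a male value of -0.37 ± 0.07 (edgeR adjusted p 0.000668). With plain library sizes neither was called, at -0.14 in males (edgeR adjusted p 0.227) and -0.21 in females (edgeR adjusted p 0.0694). The female call was also lost without a filter on low counts (edgeR adjusted p 0.162), on the female libraries alone (edgeR adjusted p 0.132) and without any of female S64F/+ 2, 3 and 5 and female WT 1, 4 and 5, with the highest edgeR adjusted p, 0.126, without female S64F/+ 2. The antisense gene Rapgef4os2 shares 337 exonic bases with it and had 27 counts over all libraries.

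Pde3b (ENSMUSG00000030671, chromosome 7, 114415281 to 114539251, plus strand) encodes a phosphodiesterase that degrades cAMP in beta cells. It had 133, 122, 125 and 129 CPM in male S64F/+ libraries, against 142, 146, 163 and 166 CPM in male WT. In females it had 156, 127, 135, 143 and 139 CPM in S64F/+ libraries, against 130, 135, 137, 156 and 152 CPM in WT. The male groups were apart and the female groups covered the same range. Pde3b fell in males (-0.28 ± 0.08, edgeR adjusted p 0.0131), a call that plain library sizes ended (-0.05, edgeR adjusted p 0.679). In females the value was -0.02 ± 0.07 (edgeR adjusted p 0.886), with an approximate 95% interval of -0.16 to 0.12. The difference between the sexes was not called (-0.26 ± 0.11, edgeR adjusted p 0.142).

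**Figure D3:**
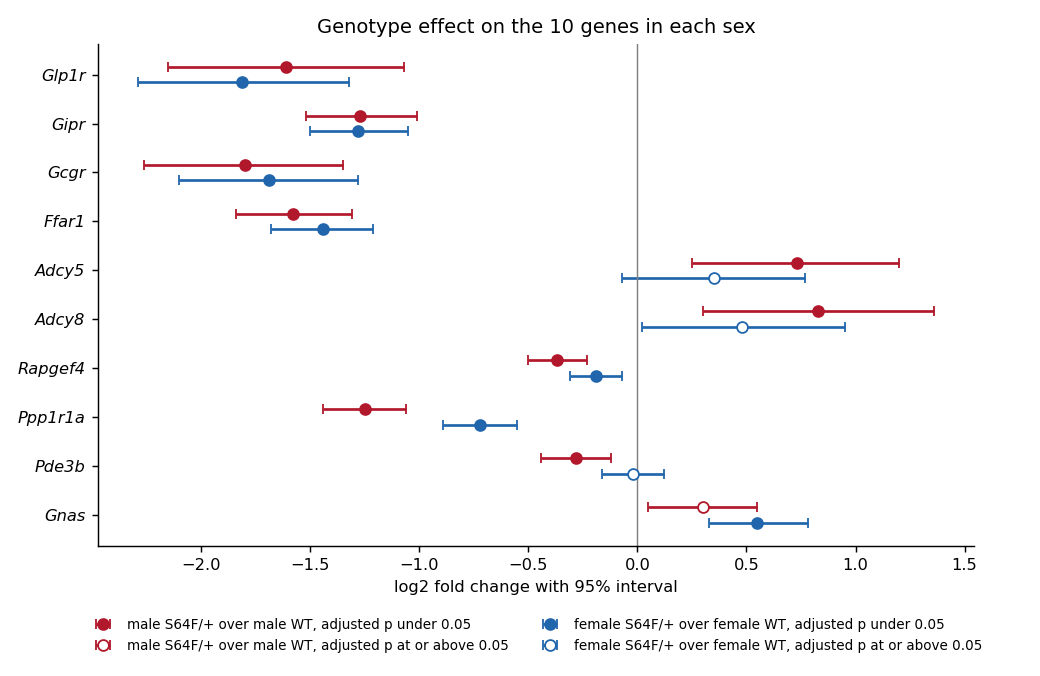
Log2 fold change of S64F/+ over WT with its approximate 95% interval (horizontal axis) for each of the 10 genes (vertical axis), in males and in females. Filled symbols are called changes and open symbols are not. The 4 receptors lie between -1.81 and -1.27 in both sexes, and Ppp1r1a is the one gene whose intervals in the 2 sexes do not overlap.

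The plain library sizes moved the median of all tested genes by 0.22 in the male comparison and by -0.02 in the female one. The male receptor values under that scaling were -1.39 for Glp1r, -1.05 for Gipr, -1.58 for Gcgr and -1.35 for Ffar1, and Ppp1r1a was at -1.03, all still called. For the 9 genes other than Ppp1r1a the male and female effects did not differ detectably, with edgeR adjusted p of 0.142 to 0.983.

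Levels between genes are given as CPM per kb of gene model, since the deposited lengths of several genes counted shared exons more than once. In S64F/+ islets Gnas was highest, at 171 ± 14.1 CPM per kb in males and 200 ± 36.2 CPM per kb in females, with Ppp1r1a next at 90.1 ± 3.55 and 139 ± 12.5 CPM per kb. In WT islets Ppp1r1a was highest, at 215 ± 18.6 CPM per kb in males and 228 ± 27.5 CPM per kb in females (SD, n = 4 for each male and 5 for each female group). Gnas was then at 139 ± 10.2 CPM per kb in male and 136 ± 14.1 CPM per kb in female WT islets. This order depends on the Gnas gene model: by the deposited FPKM Ppp1r1a was above Gnas in S64F/+ islets too, at 61.2 against 42.9 FPKM in males and 82.9 against 44.2 FPKM in females.

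By CPM per kb Gipr was above Ffar1 and Gcgr in each group, at 25.9 and 62.3 CPM per kb in male S64F/+ and male WT islets and at 32.7 and 79.2 CPM per kb in female S64F/+ and female WT islets. The order of Gipr and Ffar1 depends on the gene model. By the deposited FPKM Gipr was below Ffar1 in male S64F/+ (12.6 against 16.9 FPKM) and male WT islets (26.3 against 43.3 FPKM). The same held in female S64F/+ (14 against 17.2 FPKM) and female WT islets (34.6 against 46.9 FPKM). By CPM per kb the male WT range of Gipr overlapped that of Ffar1, at 45.6 CPM per kb. Ffar1 was at 15.3 and 45.6 CPM per kb in male S64F/+ and male WT islets and at 17.5 and 47.5 CPM per kb in female S64F/+ and female WT islets. In S64F/+ islets of both sexes the ranges of Rapgef4, Ffar1 and Pde3b overlapped in turn at 13.9 to 17.6 CPM per kb, whereas in WT islets Ffar1 was apart above Rapgef4, at 20 to 21.6 CPM per kb, and Rapgef4 overlapped Gcgr and Gcgr overlapped Pde3b. By the deposited FPKM Rapgef4 was below Pde3b, at 6.39 against 13.5 FPKM in male S64F/+ and 5.9 against 13.1 FPKM in female S64F/+ islets. Adcy5 and Adcy8 were last in all groups, at 0.993 to 1.66 and 0.148 to 0.263 CPM per kb. The place of Glp1r depends on the gene model: at the deposited length of 1480 bases it was at 43 and 131 CPM per kb in male S64F/+ and male WT islets, and at the GENCODE M21 length of 5811 bases at 10.9 and 33.4 CPM per kb, so no rank is given to it. At the deposited length its female WT range overlapped that of Ppp1r1a.

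The mix of receptors and enzymes within a library was compared on the deposited FPKM values, a measure that library scaling does not change. The log2 ratio of Glp1r to Gipr differed between S64F/+ and WT islets by -0.354 in males (exact permutation p 0.0857, adjusted p 0.143) and by -0.666 in females (exact permutation p 0.119, adjusted p 0.17). That difference does not depend on gene length, whereas the ratio itself does: in male S64F/+ islets it averaged 1.92 ± 0.185 by FPKM, 0.739 ± 0.185 by CPM per kb at the deposited Glp1r length and -0.495 ± 0.185 by counts, so no order of these 2 genes is given. The share of Adcy8 among the adenylyl cyclases averaged 0.682% ± 0.188 in female S64F/+ and 0.446% ± 0.124 in female WT islets (exact permutation p 0.0397, adjusted p 0.143). In males it averaged 0.636% in S64F/+ and 0.425% in WT islets (exact permutation p 0.0571, adjusted p 0.143). The Adcy5 share was higher in S64F/+ islets by 2.64 percentage points in males (exact permutation p 0.0857, adjusted p 0.143). In females it was higher by 2.76 points (exact permutation p 0.0476, adjusted p 0.143). The Adcy5 differences were smaller by CPM per kb, at 1.1 points in males (exact permutation p 0.0571, adjusted p 0.114) and 1.15 points in females (exact permutation p 0.0476, adjusted p 0.114). Pde3b made up 44.7% ± 2.47 of the cAMP phosphodiesterases in female S64F/+ and 40.9% ± 2.04 in female WT islets (exact permutation p 0.0317, adjusted p 0.143). In males the difference had the opposite sign, at 40.9% in S64F/+ and 42.2% in WT islets (exact permutation p 0.4, adjusted p 0.444). By CPM per kb the female shares were 36% and 32.9% (exact permutation p 0.0556, adjusted p 0.114). By counts the female difference was 0.593 percentage points (exact permutation p 0.786, adjusted p 0.786). None of the 10 such comparisons passed after adjustment, with two-sided tests whose smallest possible p is 0.0286 for 4 against 4 and 0.00794 for 5 against 5. By CPM per kb, Adcy6 was the main cyclase in all groups, at 59.7% and 61.9% of the family in male S64F/+ and male WT islets and 67.5% and 63.3% in female S64F/+ and female WT islets.

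The wider pathway was described with 14 lists of 112 further genes, of which 107 were tested. These lists too were chosen with earlier results of these data known, so their shares are descriptive. In males 27 rose and 22 fell, or 45.8% called beside 27.6% of all tested genes, and in females 15 rose and 26 fell, or 38.3% beside 21.2%. With plain library sizes 34 rose and 9 fell in males, and on female libraries alone 10 rose and 17 fell in females. The receptor lists split into genes that fell and genes that rose. Of 11 other tested receptors that raise cAMP, 5 rose and 0 fell in males, and 3 rose and 1 fell in females, so the falls of Glp1r, Gipr and Gcgr were not shared by most of their list. Adora2a, an adenosine receptor gene, rose in both sexes (0.84 ± 0.18 in males and 0.81 ± 0.16 in females, edgeR adjusted p 0.00169 and 0.00119). Sctr, the secretin receptor gene, was low throughout and averaged 1.17 ± 0.249 CPM in male S64F/+ against 0.0979 ± 0.0291 CPM in male WT islets (edgeR adjusted p 4.48e-06).

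Among 9 tested receptors that lower cAMP, 4 rose and 4 fell in males, and 1 rose and 4 fell in females, with 1 rise in males left without male S64F/+ 2. The galanin receptor gene Galr1 averaged 18.5 ± 1.96 CPM in male S64F/+ and 39.3 ± 3.99 CPM in male WT islets, with a log2 change of -1.09 ± 0.11 (edgeR adjusted p 2.21e-06), and its female value was -0.97 ± 0.10 (edgeR adjusted p 2.56e-06). The somatostatin receptor gene Sstr3 fell in both sexes (-0.92 ± 0.12 in males and -0.77 ± 0.11 in females), as did the adenosine receptor gene Adora1 (-0.78 ± 0.17 and -1.06 ± 0.15). Genes of receptors that raise cAMP and of receptors that lower it thus both stood among those that fell. Grk5, a kinase that desensitises receptors, fell in both sexes (-0.90 ± 0.15 in males and -0.93 ± 0.13 in females, edgeR adjusted p 0.000175 and 5.55e-05). Arrb1, the beta-arrestin 1 gene, rose in males (1.52 ± 0.23, edgeR adjusted p 0.000133), by 1.41 ± 0.31 more than in females (edgeR adjusted p 0.0206, and 0.0557 without male WT 4).

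Most adenylyl cyclase genes rose in males. Of 9 tested, Adcy5 and Adcy8 included, 7 rose and 0 fell in male S64F/+ islets (8 and 1 on male libraries alone), and in females 0 rose and 1, Adcy9, fell (-0.95 ± 0.18, edgeR adjusted p 0.00156). Adcy3 averaged 14 ± 0.145 CPM in male S64F/+ and 6.37 ± 1.17 CPM in male WT islets (1.13 ± 0.14, edgeR adjusted p 1.06e-05), and Adcy7 averaged 15.5 ± 3.13 CPM in male S64F/+ and 3.54 ± 1.22 CPM in male WT islets (2.11 ± 0.33, edgeR adjusted p 0.000146). The effect differed between the sexes for Adcy3 (0.80 ± 0.18, edgeR adjusted p 0.0226) and Adcy7 (1.58 ± 0.43, edgeR adjusted p 0.0458), though not for Adcy5 or Adcy8. The Adcy3 difference was lost without male WT 4 (edgeR adjusted p 0.063), and the Adcy7 difference without a filter on low counts (edgeR adjusted p 0.0761) and in 13 of 18 refits with a library dropped, the highest edgeR adjusted p being 0.102 without male WT 4. Under the other scalings, filters and models 6 to 8 cyclases were called higher and 0 to 1 lower in males. In females 0 to 2 were called higher, 2 with the replicate block and 2 by DESeq2's Wald test, and 1 lower. Adcy6, the most abundant cyclase, was at 194 ± 9.45 CPM in male S64F/+ and 176 ± 4.25 CPM in male WT islets. It was not called in the model of all libraries, but on male libraries alone each of the 9 tested cyclases was called, Adcy6 included.

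**Figure D4:**
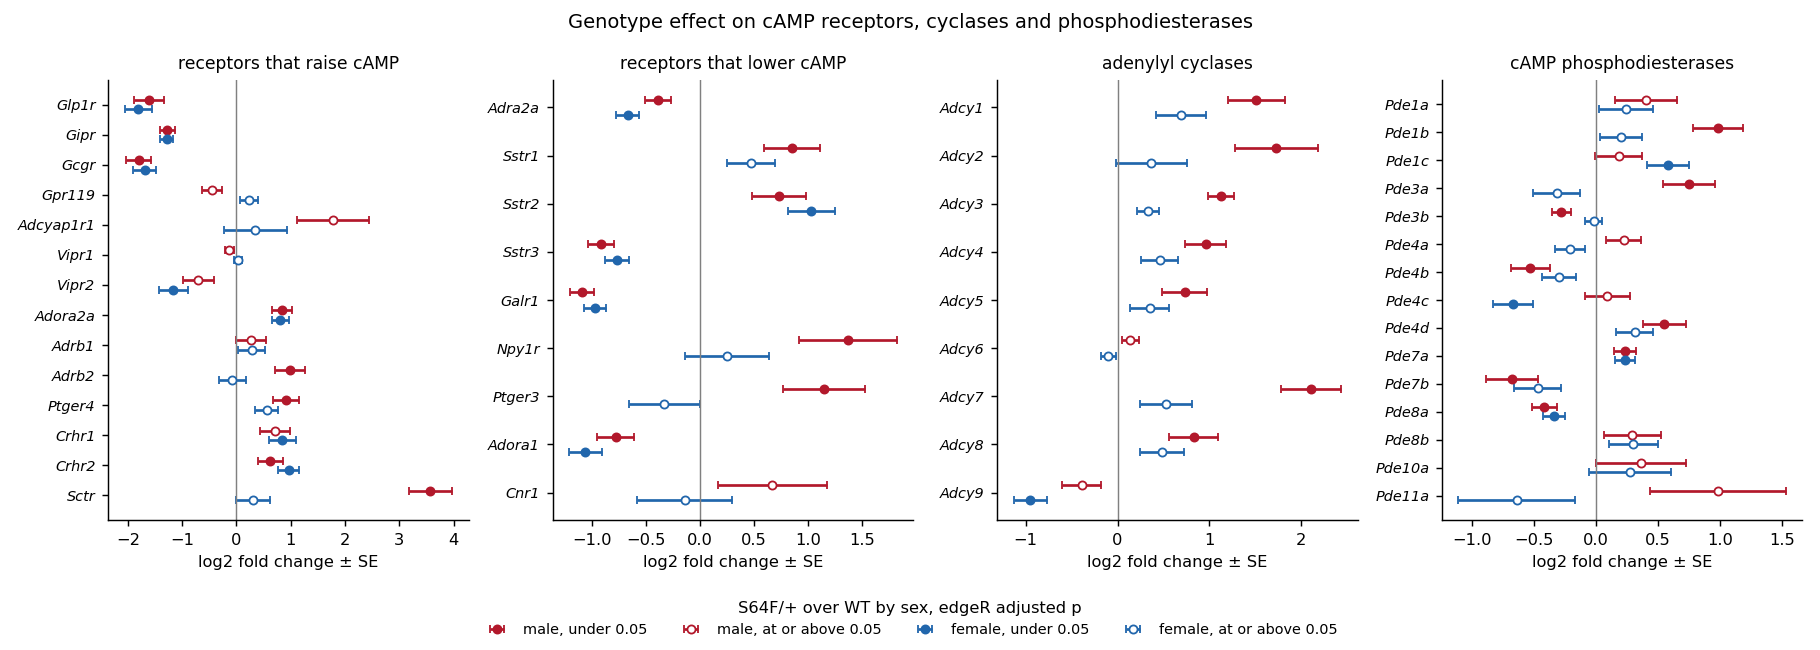
Log2 fold change of S64F/+ over WT with SE (horizontal axes) for the tested receptors that raise or lower cAMP, the adenylyl cyclases and the cAMP phosphodiesterases (vertical axes), by sex. Filled symbols are called changes. In males 7 of 9 cyclases are called higher, and in females 1 is called lower.

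Further down the chain, lists without the 10 genes had 10% to 50% called in males and 20% to 50% in females. Over all tested genes the shares were 27.6% and 21.2%. Of 14 tested phosphodiesterase genes other than Pde3b, 4 rose and 3 fell in males, and 2 rose and 2 fell in females. With plain library sizes 4 rose and 0 fell in males and 0 rose and 2 fell in females, and in females 0 rose on female libraries alone and 1 with the replicate block. Pde8a was lower in both sexes (-0.42 ± 0.10 and -0.34 ± 0.09, edgeR adjusted p 0.0029 and 0.00882), the male call being lost with plain library sizes (-0.21, edgeR adjusted p 0.225). The protein kinase A list had 3 lower genes of 9 in males and 4 in females, and 0 higher in each. With plain library sizes 1 was lower in males. In females 1 was lower on female libraries alone and 2 with the replicate block. Under that block Pkib, Prkar1b and Prkar2a were lost (edgeR adjusted p 0.0636, 0.0601 and 0.0645), and a gene of the list not called in the main fit was called lower. Prkar2b, a regulatory subunit of protein kinase A, averaged 21.8 ± 0.569 CPM in male S64F/+ and 55.9 ± 6.76 CPM in male WT islets (-1.36 ± 0.11, edgeR adjusted p 7.51e-08), and its female value was -1.01 ± 0.09 (edgeR adjusted p 6.16e-07). In the Epac list Rapgef3, which encodes Epac1, rose in males (0.86 ± 0.14, edgeR adjusted p 0.000217) where Rapgef4 fell. Ppp1r1b, which encodes the related phosphatase inhibitor DARPP-32, rose to 13.6 ± 4.58 CPM in male S64F/+ islets, against 1.76 ± 1.92 CPM in male WT (2.89 ± 0.52, edgeR adjusted p 0.000616).

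Of the 9 A-kinase anchors, 1 rose in males and 2 fell in females, and of 10 genes of CREB and its coactivators 1 rose in males, and 1 rose and 3 fell in females. On female libraries alone 0 genes of either list were called, with plain library sizes 0 genes of the CREB list fell in females, and without a filter 0 rose in males. Among 8 genes that cAMP induces, 2 rose and 0 fell in males, and 2 rose and 1 fell in females. Igf1r, the gene of the insulin-like growth factor 1 receptor, was the one that fell in females (-0.73 ± 0.11, edgeR adjusted p 0.000117). Of 4 tested ligand and processing genes, Dpp4, whose product inactivates GLP-1, fell in both sexes (-0.71 ± 0.12 in males and -0.62 ± 0.11 in females, edgeR adjusted p 0.000349 and 0.000547), and Pcsk1, whose product processes proinsulin and can release GLP-1 from proglucagon, rose in both (0.45 ± 0.12 and 0.69 ± 0.11, edgeR adjusted p 0.00954 and 0.000196).

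These are whole islets, so fewer cells of a type and less RNA per cell cannot be told apart. Markers of several cell types moved with genotype. The 8 beta-cell markers, 7 of them lower in males and 6 in females, summed to 126520 to 140869 CPM in male S64F/+ against 211356 to 288636 CPM in male WT libraries, and to 131931 to 244409 CPM in female S64F/+ against 166536 to 307223 CPM in female WT. The log2 ratio of the mean sums was -0.89 in males, where the groups were apart, and -0.15 in females, where they overlapped, beside receptor values of -1.27 to -1.80 and -1.28 to -1.81. Such a sum follows its most abundant genes and can differ from the single markers, 6 of 8 of which were called lower in females. It is therefore no measure of the number of beta cells. Alpha-cell markers, 7 of 7 higher in females and 1 of 7 in males, summed to 59833 to 82963 CPM in female S64F/+ against 34132 to 42415 CPM in female WT libraries. Gcg, the proglucagon gene, dominates that sum, and its female log2 fold change was 1.00 ± 0.13 (edgeR adjusted p 3.34e-05).

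Stellate and fibroblast markers were higher for 7 of 7 genes in males and 0 of 7 in females, with sums of 1311 to 2088 CPM in male S64F/+ against 126 to 381 CPM in male WT libraries, in the comparison in which the cyclases rose. Delta-cell markers were higher for 3 of 4 genes in males and 4 of 4 in females, and ductal markers for 5 of 6 and 2 of 6. Endothelial markers were higher for 3 and lower for 1 of 5 genes in males, and lower for 1 of 5 in females. Macrophage markers were higher for 4 and lower for 1 of 6 genes in males, and higher for 3 of 6 in females. The PP-cell marker was called higher in females, 2 of 5 Schwann markers were higher in males, and 0 of 5 acinar markers were called in either sex. No marker of these lists was at 0 in a whole group, and the part of these cells in the changes of the 10 genes was not tested.

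**Figure D5:**
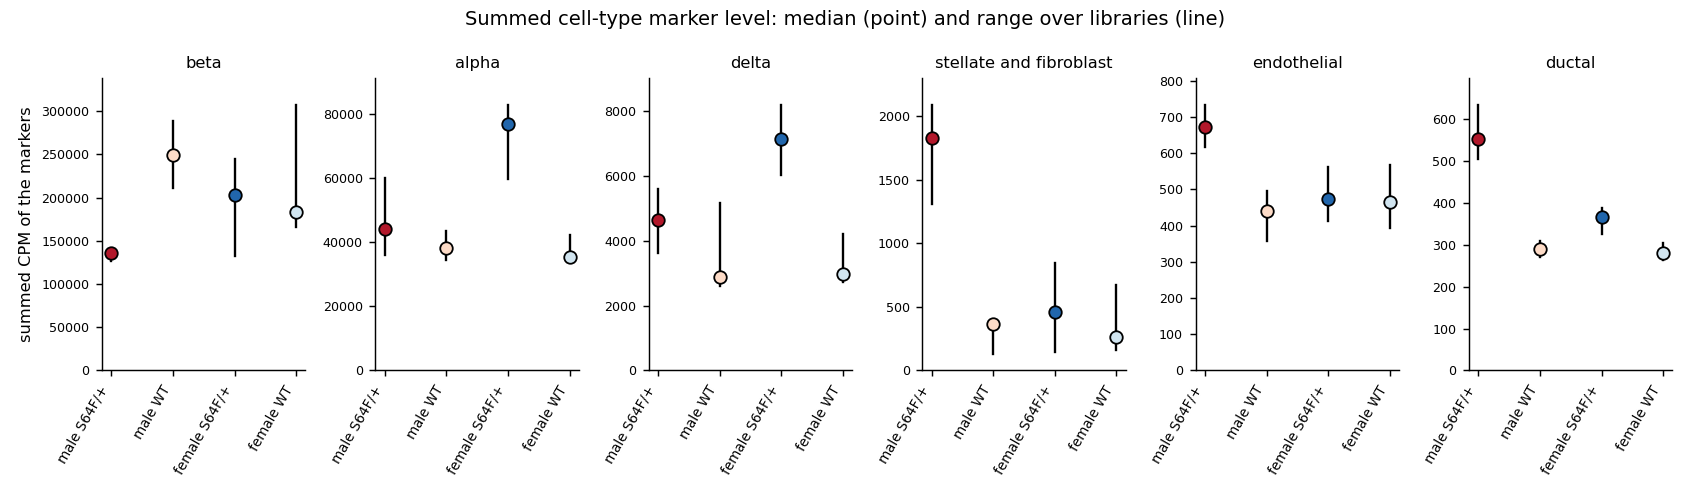
Summed CPM of the marker genes of 6 cell types (vertical axes, from 0) by group (horizontal axes), with the median as a point and the range over libraries as a line. The beta-cell sum is lowest in male S64F/+ islets and the stellate and fibroblast sum is highest there, while the alpha-cell sum is highest in female S64F/+ islets.

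The genes whose log2 CPM ran most like each of the 10 over the 18 libraries were also looked up, among 9712 genes averaging at least 10 CPM. Libraries share their scaling and fall into groups that differ, so these correlations describe the pattern and carry no test. Glp1r was most like Itpkb, an inositol trisphosphate kinase gene (Pearson r 0.979), and Tenm3 (0.976). Gipr was most like Mlxipl, which encodes the glucose-responsive transcription factor ChREBP (0.986), and Appl2 (0.96). Ffar1 was most like Th, the tyrosine hydroxylase gene (0.986), and Mboat2 (0.983), and Gcgr was most like Tmigd3 (0.95) and Tspyl4 (0.948). Ppp1r1a was most like Prps1 (0.982) and Frzb, which encodes a secreted Wnt antagonist (0.976).

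Adcy5 was most like Ppp2r2c (0.956) and Rab3c (0.92), and Rapgef4 was most like Tmco3 (0.924) and Cox15 (0.918). Gnas was most like Tlnrd1 (0.923) and Sorcs2 (0.919), Pde3b most like Elp4 (0.913) and Pla2g2f (0.882), and Adcy8, the lowest of the 10, most like Agap2 (0.883) and Lpin2 (0.872).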

How the data were processed

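The authors deposited raw counts per gene for each library. The submitters' processing notes name the build GRCm38 and the tools FastQC, MultiQC, STAR, DESeq2 and featureCounts, without versions or roles. Per the labels' protocols, RNA had an integrity number above 8, and reads were paired, 150 nucleotides long. The sources used here do not give annotation, strand setting or handling of multi-mapping reads, so reads of overlapping antisense genes cannot be told apart. The tables list 53900 features, of which 99 are not genes and had 0 counts. The authors also deposited FPKM values, whose implied length was within 1 base of the summed exons of all transcripts in GENCODE M21 for 31674 of 33491 genes, so exons shared by transcripts count repeatedly (Gnas at 49244 bases, against 11186 merged). FPKM values were therefore used only for the mix within a library and as a second view of the order of some genes. These were Gnas and Ppp1r1a, Gipr and Ffar1, and Rapgef4 and Pde3b. Levels between genes are CPM per kb of merged exons, or of the deposited length where it is not that sum.

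The tests used edgeR 4.0.16 (with limma 3.58.1, under R 4.3.3): filterByExpr by group (minimum count 10, minimum total 15), TMM scaling, and 1 robust quasi-likelihood model over all 18 libraries, with the genotype contrast in each sex, their difference, and the sexes within each genotype. Benjamini-Hochberg adjustment of the two-sided p-values ran over 18364 genes per contrast. The biological coefficient of variation was 24.4%. Intervals are 1.96 SE to each side, a normal approximation to 95% that is narrower than the edgeR test implies. For female Adcy8 the interval was 0.02 to 0.95 while the unadjusted edgeR p was 0.0571. Receptor and enzyme mixes were compared by exact permutation in scipy 1.17.1. Scripts were tested on simulated data. Replicate counts differed by a chi-square per degree of freedom of at least 21.7, so none repeats another.

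Alternatives were plain library sizes, DESeq2 size factors, DESeq2 1.42.0's Wald test, no filter, only the groups compared, each library left out, and the replicate number as a block. Same-numbered female S64F/+ and WT libraries correlated at 0.11 to 0.418 in their deviations from group means, past the set criterion of 0.1 for pairs. Female S64F/+ 1, 3 and 5 correlated more with a WT library of another number. The labels state no pairing, so whether the numbers pair libraries was not settled, and the main tests use no block. Male numbers (-0.249 to 0.189) and numbers across the sexes (-0.15 to 0.221) did not meet the criterion throughout. The 10 genes, the pathway and marker lists and the tests were chosen with earlier results of these data known. Beyond the 10 genes and Mafa, the text names up to 3 called genes of smallest p per list and contrast, and for each of the 10 genes the 2 most correlated genes. The neighbours of Ffar1, Gcg and Adcy6 beside the lists, and CPM per kb as a level were added after values had been seen.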

Additional observations from a re-analysis of the deposited data

Results flagged for a closer look

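Of 60 sets of 4 or 5 replicate values checked for a value far from the rest, 3 were flagged, and chance alone flags about 1 in 20. Glp1r in female WT 5 was at 313 CPM, above the other 4 libraries of its group at 211 to 237 CPM. Ffar1 in female S64F/+ 1 was at 106 CPM, above the other 4 at 57.7 to 69.2 CPM. The share of Adcy8 among the adenylyl cyclases was 0.66% in female WT 3, the highest of its group.

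Genotype effects that differed between males and females by the test of the difference were flagged for 8 genes. Ppp1r1a had a male minus female difference of -0.53. The others were Gcg (-0.75, edgeR adjusted p 0.0429), Sctr (3.27, edgeR adjusted p 0.00434), Arrb1 (1.41), Adcy3 (0.80), Adcy7 (1.58), Pde3a (1.07, edgeR adjusted p 0.0416) and Rapgef3 (0.76, edgeR adjusted p 0.0349). Among the 18 fits that each left out 1 library, the call was kept in all for Sctr. It was lost in 13 of 18 for Gcg, Adcy7 and Pde3a and in 11 of 18 for Rapgef3. Gcg was also lost with plain library sizes (-0.49, edgeR adjusted p 0.112) and without a filter on low counts (-0.75, edgeR adjusted p 0.0906).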

How the results depend on the processing

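The genotype calls of Glp1r, Gipr, Gcgr, Ffar1 and Ppp1r1a in both sexes and of Gnas in females held under every alternative run, and the calls that did not hold are given beside their genes. Percentages here are of the genes tested in each fit. Without a filter on low counts 33562 genes were tested, and the percentages called were 12.5 for males, 8.89 for females, 1.43 for the interaction, 5.87 for the sexes in S64F/+ and 0.751 in WT. On female libraries alone 2587 genes were called between the genotypes, against 3884 in the model of all libraries. The interaction was called for 4.47% of genes, against 10.5% by DESeq2's Wald test and 1.34% to 11.8% with 1 library left out (lowest without male WT 4, highest without female S64F/+ 1). Of the 10 genes, 1 had a called interaction, against 0 with plain library sizes, 0 without a filter, and 0 to 1 with 1 library left out. Between the sexes in S64F/+ islets 16.1% were called, and 8.91% to 23.6% with 1 library left out (lowest without male S64F/+ 3, highest without female S64F/+ 1). Of the 10 genes 1 was called there, against 2 on the S64F/+ libraries alone, where Gipr joined (-0.34, edgeR adjusted p 0.047), and 1 to 2 with 1 library left out. Between the sexes in WT islets 2.36% were called, against 0.61% with plain library sizes, 1.32% on WT libraries alone, 5.81% by DESeq2's Wald test and 0.376% to 3.49% with 1 library left out (lowest without male WT 4, highest without female S64F/+ 3). The cause of these changes was not tested.

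With the replicate number as a block, 8.98% of genes were called between the sexes in S64F/+ and 0.92% in WT islets, male Adcy8 (0.84, edgeR adjusted p 0.0558) was lost, male Gnas (0.30, edgeR adjusted p 0.0361) was gained, and no other call of the 10 genes changed. Only the female genotype comparison met the set criterion for pairs, though not every female library correlated most with its own number.

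Signs turned under plain library sizes for values near 0. In males Grk2 was at 0.02 and Prkacb at 0.00. Male minus female differences in effect were 0.14 for Gcgr, 0.10 for Ffar1 and 0.06 for Rapgef4. Male over female in S64F/+ was 0.02 for Glp1r, 0.01 for Gcgr, 0.12 for Rapgef4 and 0.04 for Pde3b, and in WT -0.03 for Gnas. With 1 library left out the interaction ran from -0.10 to 0.11 for Gipr, -0.24 to 0.07 for Gcgr and -0.21 to 0.04 for Ffar1, the female effect on Pde3b from -0.06 to 0.03, the sex difference in S64F/+ from -0.30 to 0.25 for Glp1r and -0.10 to 0.18 for Adcy8, and that in WT from -0.27 to 0.04 for Gcgr and -0.01 to 0.07 for Gnas. The female S64F/+ minus WT difference in the Gcgr share of 3 receptors was 0.454 percentage points, -0.732 by counts and -0.388 to 0.936 with 1 library left out. All other receptor and enzyme mixes kept their direction and remained past no threshold, also by CPM per kb. The interaction was not run on fewer groups, since it needs all 4. With 4 or 5 libraries a group, a p above the threshold does not show that values are alike.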
